A study of Homo sapiens with 2 samples.

Results

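Of the 49746 peaks that the authors called in Huh-7 cells, 2952 carried an intron label, 5.93% of the list (95% exact Clopper-Pearson interval 5.73 to 6.15%, counting error only). Every peak with such a label was taken, with no further limit on fold or p. The largest p in the authors' list was 0.0499993, so it holds only peaks with p under 0.05. They lay in 1980 genes, and 2951 of them were labelled as introns of coding genes. The other 1 was labelled as the intron of a non-coding RNA, AC007528. Of the 43843 peaks whose listed transcript came from a coding gene, 6.73% were in introns (6.50 to 6.97%), and introns of non-coding genes are nearly absent from the label.

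Huh-7 is a long-established human cell line derived from a liver cancer. It was wild type and untreated, and the series holds 1 library of RNA fragments pulled down with an antibody to N6-methyladenosine (m6A) (the IP) and 1 library of fragments from before the pull-down (the input). With 1 library of each kind no value has a replicate check, and peaks or genes of the same pair of libraries are not replicates, so no p-value is computed across them. The protocol text speaks of adipose RNA, but the input held liver transcripts, with AFP at 2380 FPKM, ALB at 1202 FPKM and HNF4A at 55.1 FPKM, while PLIN1 of fat cells was at 0.0690 FPKM and ADIPOQ and LEP were not listed. FPKM is the number of fragments per kilobase of transcript, scaled to the library's size. The files give no read counts, so the depth is unknown.

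m6A is a methyl mark that a nuclear enzyme complex places on adenosines while RNA is being made, mostly near stop codons, in long exons and in 3′ UTRs of mRNA, often within the letters GGAC. Introns are cut out soon after they are transcribed, and most RNA in a cell is spliced, so a mark in an intron can be seen only in RNA that still holds that intron, or in another RNA made from the same stretch of DNA. Small nucleolar RNAs (snoRNAs, guides for the modification of ribosomal RNA), the related Cajal body RNAs (scaRNAs) and many microRNAs are themselves cut from introns of host genes.

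The microRNA hairpins under the intron peaks had known sequences. Of the 650 microRNA genes in the authors' gene table, 6 were overlapped by an intron peak on their own strand, and 4 of these hairpins are shown because they lay whole inside a peak of 2000 nt or less. The sequences are those of RefSeq (GRCh38.p14), 5′ to 3′, and capitals mark GGAC, which was searched on the RNA strand only.
MIR1291 (intron of KANSL2): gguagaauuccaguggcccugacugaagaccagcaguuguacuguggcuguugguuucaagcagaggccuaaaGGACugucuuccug
MIR3651 (intron of IARS1): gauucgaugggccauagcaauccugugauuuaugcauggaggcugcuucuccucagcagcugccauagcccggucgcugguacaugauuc
MIR6516 (intron of SEC14L1): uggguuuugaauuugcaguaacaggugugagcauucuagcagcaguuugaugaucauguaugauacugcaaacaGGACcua
MIR4451 (intron of ARHGAP24): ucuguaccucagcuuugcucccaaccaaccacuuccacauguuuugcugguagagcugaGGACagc
The hairpins of MIR1291, MIR6516 and MIR4451 hold the letters once each and that of MIR3651 does not. Those of MIR4312 and MIR6787, which were overlapped but are not shown, do not hold them either. For comparison, 427 of the 1562 hairpins in the table hold them, 27.3%. In the mature microRNAs of the hairpins shown, capitals mark the seed (bases 2 to 8), and no seed is shared.
hsa-miR-1291: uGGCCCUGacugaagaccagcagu
hsa-miR-3651: cAUAGCCCggucgcugguacauga
hsa-miR-6516-5p: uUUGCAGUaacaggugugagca
hsa-miR-6516-3p: aUCAUGUAugauacugcaaaca
hsa-miR-4451: uGGUAGAGcugaggaca
The peaks over these hairpins were weak. Their log2 fold of IP over input, the authors' own value, was 0.82 in KANSL2, 0.79 in IARS1, 0.61 in SEC14L1 and 1.22 in ARHGAP24. The first 3 of these peaks also covered a snoRNA or scaRNA gene (SNORA2C, SNORA84 and SCARNA16), and fragments of the overlapping RNAs cannot be told apart in a peak.

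Intron peaks were narrow. Their listed width had a median of 226 nt (quartiles 126 and 401), against 526 nt for 3′ UTR peaks, 1759 nt for coding exons, 1377 nt for 5′ UTRs and 476 nt for non-coding exons. At the smallest width of 101 nt stood 15.9% of intron peaks and 5.34% of 3′ UTR peaks. Widths moved in steps of 25 nt for 89.6% of intron peaks, against 55.9% of the others. A listed extent can also run across spliced introns, and 113 intron peaks (3.83%) were over 2000 nt wide, against 21.5% of 3′ UTR peaks and 47.5% of coding exon peaks. The widest were in MGMT, which repairs alkylated guanine in DNA, at 164529 nt (log2 fold 1.14), and in ITPR1, a calcium channel of the endoplasmic reticulum, at 75076 nt (0.94). ATXN1, FRMD6 and OSBPL10 followed at 68377, 64430 and 62549 nt. Such extents cannot place a mark.

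The fold of intron peaks lay within the range of the other regions, but few intron peaks were called firmly. The median log2 fold was 1.12 (2.17-fold), against 1.06 for 3′ UTR, 0.88 for coding exon, 1.21 for 5′ UTR and 1.58 for non-coding exon peaks, and the range was 0.33 to 7.02. Peaks of 2-fold or more with the authors' adjusted p under 0.001 are called strong here. Strong intron peaks numbered 368, 12.5% (11.3 to 13.7%), against 31.5% of all peaks and 34.6% of 3′ UTR peaks. An adjusted p under 0.001 at any fold was reached by 16.7% of intron peaks and by 44.1% of all peaks, while 4-fold or more was reached by 409 intron peaks, 13.9%, against 19.7% of all peaks and 36.1% of non-coding exon peaks. The adjusted p was 0.05 or more in 288 intron peaks, 9.76%, against 4.95% of all peaks. Within most classes of width the regions stood closer together. From 501 to 1001 nt, 51.7% of intron peaks (46.1 to 57.4%) and 56.6% of the others were strong. From 1001 to 2000 nt these were 58.0% (47.0 to 68.4%) and 57.0%. From 201 to 501 nt, a class that held 1026 intron peaks, they were 10.1% (8.36 to 12.1%) and 15.7%. Among the 113 intron peaks over 2000 nt the gap was wide again, with 25.7% (17.9 to 34.7%) strong against 43.1% of the others. At up to 201 nt few peaks of either kind were strong, 2.02% of intron peaks and 1.21% of the others above 101 nt, and 0.426% and 0.494% at 101 nt.

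Intron peaks lay along the whole gene, and those over no other gene leaned toward its 3′ side. The midpoint had a median position of 59.9% of the gene span (quartiles 33.7 and 81.0%), where 3′ UTR peaks stood at 92.9%, coding exon peaks at 62.4% and 5′ UTR peaks at 13.6%. When the gene span was cut into 10 equal parts, the first 3 parts held 658 intron peaks (22.3%) and the last 3 held 1149 (38.9%). For peaks that overlapped no other listed gene on the same strand these shares were 19.1% and 42.9%, and for those that did they were 31.8% and 27.1%. By gene span the median position was 44.0% in genes of up to 10 kb, 65.6% from 30 to 100 kb and 47.9% over 300 kb. The fullest was the part before the last with 15.0% (13.7 to 16.3%), and the last held 11.3%. Coding exon peaks were close to this, with 14.5% and 12.3% of their number in these parts, while 3′ UTR peaks had 56.7% in the last. The middle intron peak was 26.5 kb from the annotated gene start and 16.6 kb from the gene end. Only 75 lay within 1 kb of the start and 25 within 1 kb of the end.

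**Figure D1:**
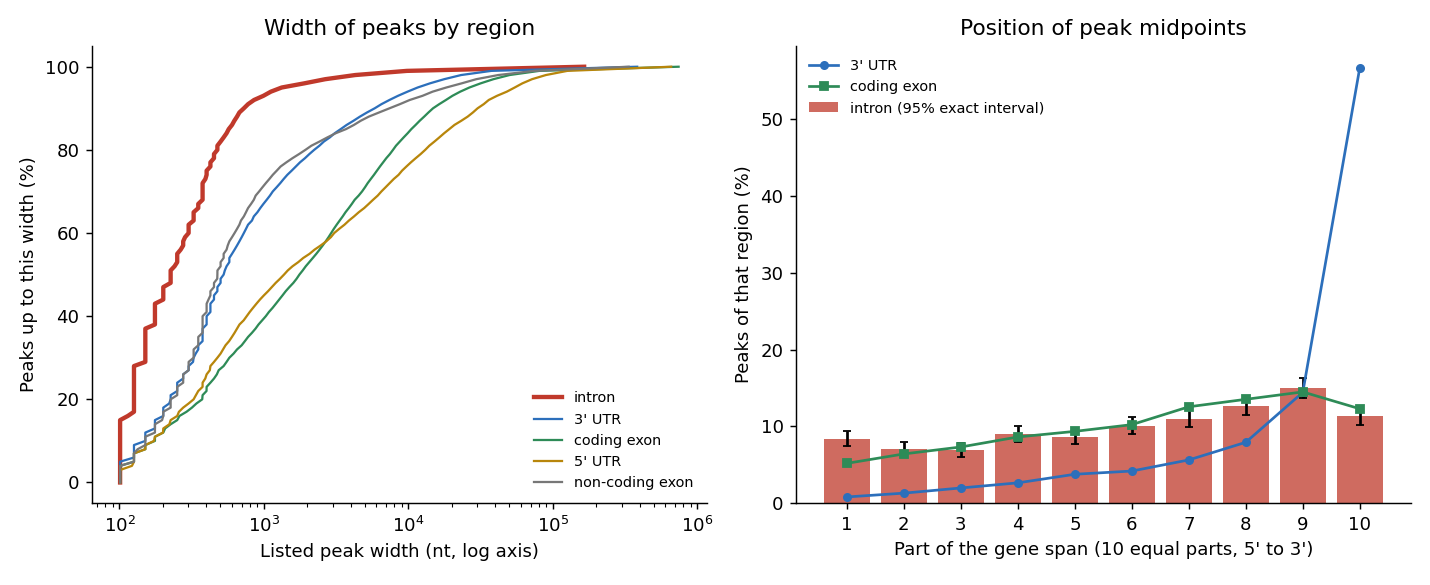
Left, the share of peaks (%) up to each listed width in nt on a log axis, by region; right, the share of a region's peaks (%) whose midpoint falls in each of 10 equal parts of the gene span, with 95% exact intervals (counting error only) on the intron bars. Intron widths have a median of 226 nt and lie to the left of every other region, and intron positions rise to 15.0% in the part before the last, without the 3′ UTR's jump to 56.7% in the last. Coding exon positions reach 14.5% in the part before the last.

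Long genes and abundant genes more often had an intron peak. The input library held 10536 protein-coding genes at 1 FPKM or more, and 1823 of them had at least 1 intron peak, 17.3% (16.6 to 18.0%). In 5 groups of equal size ordered by gene span the share was 8.73, 15.0, 18.7, 18.7 and 25.4%, for median spans of 5.65, 16.3, 32.9, 63.8 and 156 kb. In 5 groups ordered by input level it was 9.87, 15.6, 19.3, 20.6 and 21.2%, for median levels of 1.65, 3.25, 5.60, 9.54 and 23.3 FPKM. With both split at once, the share ran from 4.06% (2.34 to 6.51%) of the shortest and least abundant genes to 34.2% of the longest and most abundant. More fragments are read from an abundant gene, and the part of this in the rise was not tested.

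**Figure D2:**
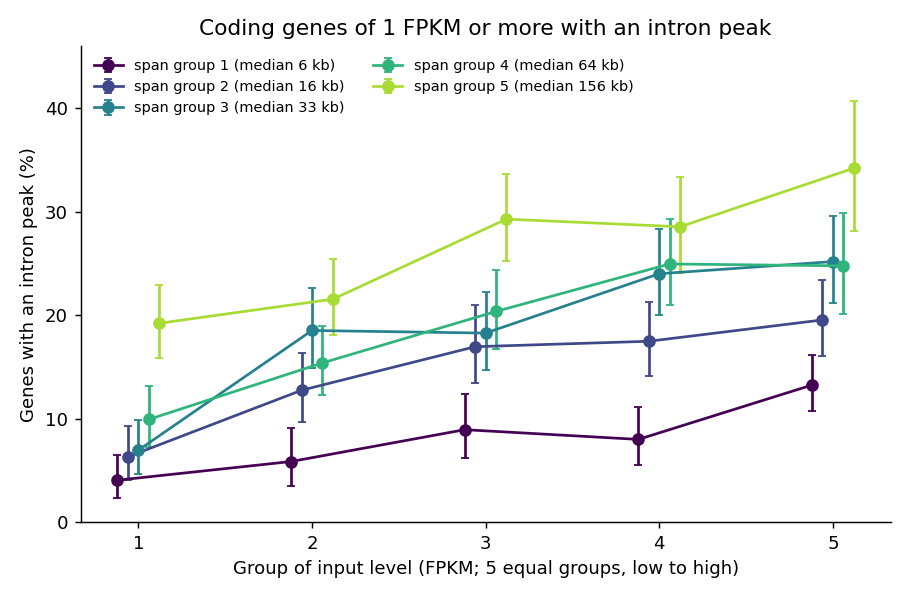
Share (%) of protein-coding genes of 1 FPKM or more with at least 1 intron peak, by 5 groups of input level on the x axis and with 1 line for each of 5 groups of gene span; bars are 95% exact intervals (counting error only). The line of the longest genes lies above the others and ends at 34.2%, and that of the shortest starts at 4.06%.

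Seen from the peaks, the median host gene spanned 53.9 kb (quartiles 24.4 and 126 kb) and stood at 6.52 FPKM (3.24 and 12.7 FPKM). Hosts of 3′ UTR peaks had a median span of 46.6 kb and a median level of 5.12 FPKM. Intron peaks made up 2.79% of peaks in genes of up to 10 kb and 8.06% in genes over 300 kb. They were 2.68% of peaks in genes of up to 1 FPKM, 6.63% from 3 to 10 FPKM and 10.3% from 30 to 100 FPKM, and then 7.37% (4.95 to 10.5%) of the 380 peaks over 100 FPKM. The median log2 fold of intron peaks fell along the same classes of level, from 1.89 at up to 1 FPKM to 1.14 from 3 to 10 FPKM and 0.67 from 30 to 100 FPKM. The fold of 3′ UTR peaks took the same course with 2.13, 0.98 and 0.66. Only peaks with p under 0.05 are in the list, and the part of that cut in these medians was not tested.

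The most abundant hosts make secreted liver proteins and ribosomal proteins, and their intron peaks were shallow. ALB, serum albumin, had 1 intron peak (chromosome 4, 73412202 to 73413355) with a log2 fold of 0.45 and the authors' adjusted p of 7.53e-65. It was among the 10 intron peaks with the lowest p although IP exceeded input by only 1.37-fold. RPS2, a protein of the small ribosomal subunit at 343 FPKM, had a peak of 151 nt at 0.77. FN1, fibronectin at 278 FPKM, had 6 peaks between 0.41 and 0.75. RPS3A, also of the small subunit and at 249 FPKM, had 1 at 0.66 over SNORD73A. In AHSG, fetuin-A at 190 FPKM, the gene's only peak was the intron peak, at 0.72. Coordinates are given as in the authors' files with 1 added to the start, because listed starts count from 0; the sources used here do not name the genome build.

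Many intron peaks lay over a second gene, and the strongest most often did so. On the same strand, 745 of the 2952 overlapped another listed gene by 1 nt or more, 25.2% (23.7 to 26.8%), against 7.49% of 3′ UTR peaks, 5.04% of coding exon peaks and 10.2% of 5′ UTR peaks. Among peaks of 2000 nt or less these shares were 25.0, 6.02, 3.98 and 7.06%. The share rose with the fold of the intron peak. It was 14.4% under 2-fold, 25.3% from 2-fold to 4-fold, 53.4% (47.2 to 59.5%) from 4-fold to 8-fold and 59.4% (50.9 to 67.6%) at 8-fold or more. The same classes of 3′ UTR peaks held 6.73, 7.96, 8.58 and 8.09%. Among intron peaks of 4-fold or more with the authors' adjusted p under 0.001, 125 of 182 lay over another gene, 68.7% (61.4 to 75.3%), against 8.67% of such 3′ UTR peaks. The share over another gene also fell with host level, as the fold did. It was 59.6% of intron peaks in hosts of up to 1 FPKM, 22.3% from 3 to 10 FPKM and 16.1% from 30 to 100 FPKM. The part of host level in the rise with fold was not tested.

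**Figure D3:**
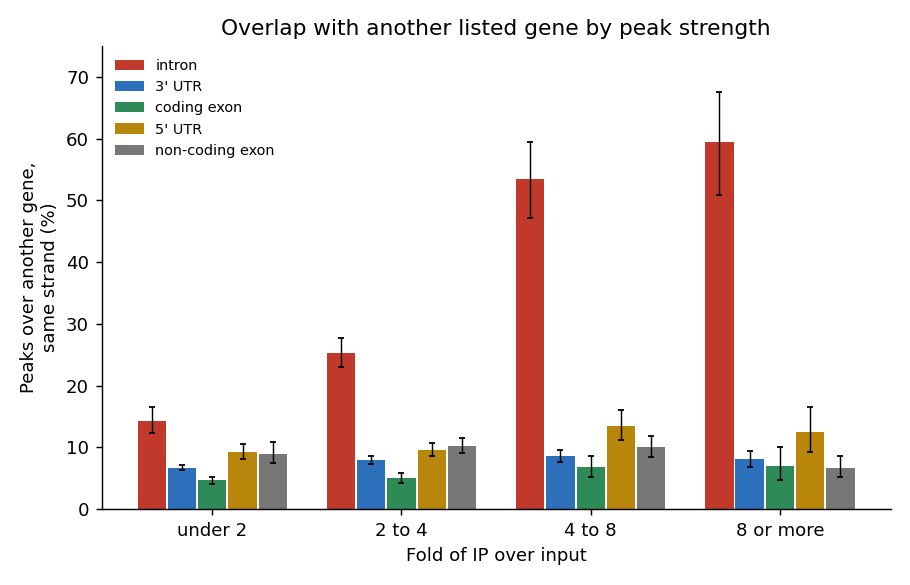
Share (%) of peaks that overlap another listed gene on the same strand, by class of fold of IP over input and by region, with 95% exact intervals (counting error only). The intron bars rise from 14.4% to 59.4%, and the 3′ UTR bars stay between 6.73% and 8.58%.

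The other genes were mostly pseudogenes, which are copies of genes that no longer make the protein, and non-coding RNAs. Taking the smallest gene under each peak, 297 were pseudogenes (39.9%), 290 were non-coding RNAs (38.9%), 41 were protein-coding genes and 28 were snoRNAs or scaRNAs. Peaks over pseudogenes had the highest median log2 fold, 1.87, with 112 of 297 strong, while those over non-coding RNAs had 1.31 with 62 of 290 strong. Peaks over protein-coding genes had 1.04, close to the 1.05 of the 2207 intron peaks over no other gene. Of those 2207, 7.66% were strong (6.58 to 8.85%), against 26.7% (23.6 to 30.0%) of the 745. The peaks over no other gene were also narrower (201 against 326 nt) and lay in shorter hosts (45.7 against 83.6 kb). An edge of the peak fell on an edge of such a gene in 201 of the 745, at the gene's lower coordinate in 155 and at its upper one in 77. Whether a peak lay in an exon of the other gene was not tested, because exon positions are not used here.

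The strongest intron peaks show this gene by gene. Of the 10 with the highest fold among those with an adjusted p under 0.001, a width of 2000 nt or less and a host of 1 FPKM or more, 9 lay over another gene. The highest was in ESRP2, an epithelial splicing regulator, at a log2 fold of 5.47 (chromosome 16, 68236845 to 68237484, minus strand). Its lower coordinate, the 3′ end on this strand, was also that of AC020978, which the authors' gene table describes as lying in an ESRP2 intron in the sense direction. In SLC9A7, a sodium-proton exchanger, the peak at 5.10 lay inside PGAM1P7, a pseudogene of the glycolytic enzyme PGAM1. In IST1, an adaptor in membrane remodelling, the peak at 5.00 had exactly the extent of AC010653 (71859680 to 71860676 on chromosome 16) and also overlapped ATXN1L and a peak on the other strand.

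The next peaks in rank were of the same kind. ZNF813, a zinc-finger gene, had a peak at 4.40 over TPM3P6, a tropomyosin pseudogene. AMZ2 had one at 4.35 over a pseudogene of the chromatin remodelling factor BPTF. In MRTFA, a coactivator that responds to actin, the peak at 4.28 lay over RPL4P6, a pseudogene of ribosomal protein L4. GALNT13, SNU13 and TMEM38B had peaks at 4.14, 4.05 and 3.98 over pseudogenes of prohibitin, LLPH and DEPDC1. Reads from pseudogenes and their parent genes can be assigned to either, so the place of these peaks is uncertain. The exception among the 10 was GOLGA8B at 5.26, which overlapped no other listed gene but belongs to a family of near-identical copies.

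The firmest calls gave a similar picture, with 8 of the 10 lowest p values over another gene. The lowest belonged to TF, transferrin, the iron carrier of plasma, with a log2 fold of 2.97 and an adjusted p of 1.01e-256 (chromosome 3, 133760375 to 133762363). That peak ended at the last base of AC080128, a pseudogene of the fatty acid activating enzyme ACSL3, listed at 13.0 FPKM beside 76.6 FPKM for TF. The 4 other intron peaks of TF lay between 0.43 and 0.97. HS3ST3B1, a heparan sulfate sulfotransferase, had a peak at 3.66 that began with the non-coding gene AC005224, at 8.64 FPKM in a host of 9.87 FPKM. SEC31A, a coat protein of secretory vesicles, had one at 2.67 over THAP9-AS1. FBRSL1 had one at 2.95 over AC131212. The second lowest p was that of AL158151, an extent of 24885 nt at 5.19, which overlapped another listed gene and a peak on the other strand. RBAK-RBAKDN, a readthrough gene, had a peak at 2.54 over the pseudogene RNF216P1. AL158151 and RBAK-RBAKDN have no input level.

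Strong intron peaks without a second listed gene also existed. SPG7, a mitochondrial protease subunit, had one of 1201 nt at 3.26 with an adjusted p of 5.53e-182 (chromosome 16, 89517954 to 89519153), at 41.5% of the gene. DNAJC21, a ribosome assembly cochaperone, had one of 926 nt at 2.65 with an adjusted p of 5.86e-55. ITGB3BP, a centromere protein, had one of 876 nt at 3.52 with an adjusted p of 1.50e-12. PRR3, ACSF3, KDM2B and ABAT had peaks at 3.72, 3.61, 3.11 and 3.08. Apart from SPG7, the genes in these sentences were chosen after their values were seen. In all, 182 peaks over no other gene reached 4-fold and 169 were strong.

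At snoRNA and scaRNA genes most peaks shared an edge with the small RNA gene. Of the intron peaks, 31 in 28 host genes overlapped such a gene: 21 a SNORA gene (H/ACA box), 6 a SNORD gene (C/D box) and 4 a SCARNA gene. Their median width was 136 nt, 25 were of 150 nt or less, 24 shared an edge with the small RNA gene, and in 28 at least 90% of the gene was covered. Over all regions, 2940 peaks began at the lower coordinate of a listed gene, and widths mostly moved in steps of 25 nt. How far the peak calling itself set the shared edges and the coverage was not tested. The highest of the 31 was in RAB3GAP1, at a log2 fold of 2.97 (adjusted p 3.28e-10), over SNORA40B. CCT6A, a chaperonin subunit, had 2.71 over SNORA15. RPL12 had 2.39 (adjusted p 1.53e-28) over SNORA65. PABPC4 had 1.99 over SNORA55, and PTCD3 had 1.47 over SNORD94, both with the whole gene inside the peak. The lowest of the 31 were MATR3 at 0.59 over SNORA74A and SEC14L1 at 0.61 over SCARNA16.

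Of the 31 peaks 8 lay in 7 genes of ribosomal proteins, among them RPL5 at 1.67 over SNORA66 and RPS12 at 0.72 over SNORA33. Others lay in NCL, nucleolin, at 1.98 over SNORA75, and in EIF5, an initiation factor, at 1.32 over SNORA28. Of the 133 listed SNORA genes 21 were overlapped (15.8%), and of the 147 SNORD entries 7 (4.76%), of which 2 are entries of the same gene. The lengths of the families differ, with a median of 134 nt for SNORA and 79 nt for SNORD genes, which is below the smallest peak width of 101 nt. In the input, PTCD3 stood at 8.08 FPKM and SNORD94 at 56.0 FPKM. RPS12 stood at 431 FPKM and SNORA33 at 35.9 FPKM. Strong calls were 8 of the 31, 25.8%, against 31.5% of all peaks.

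**Figure D4:**
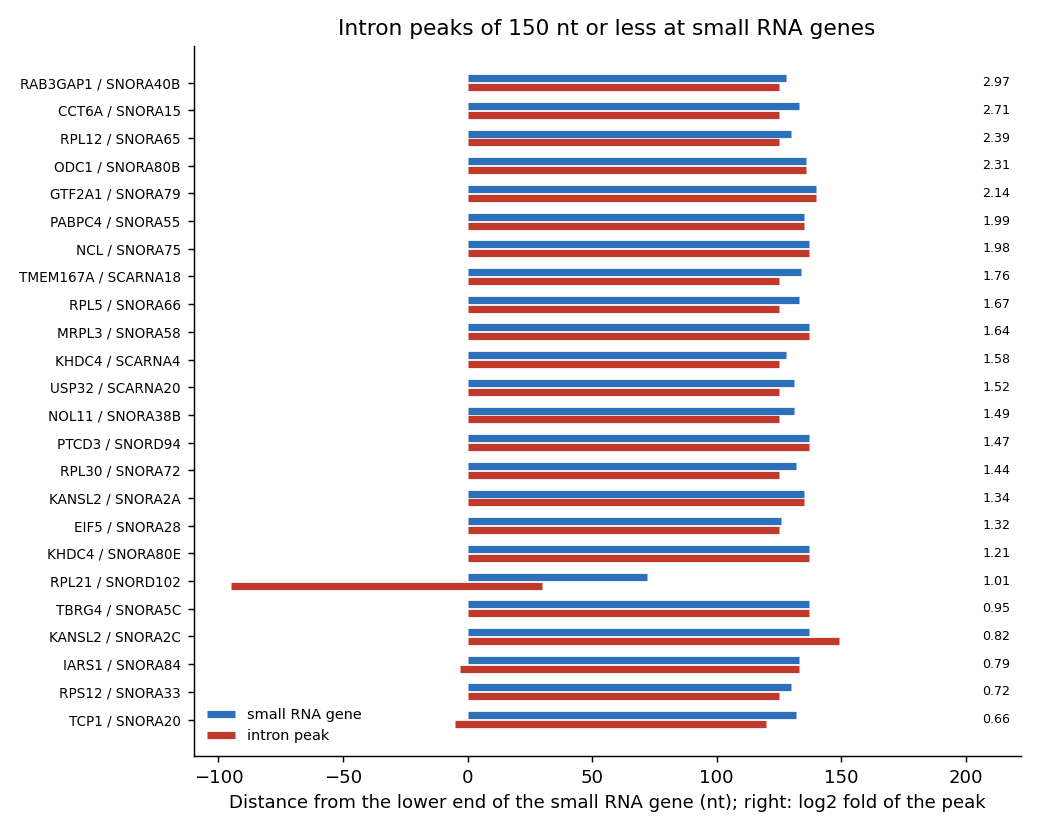
Of the 25 intron peaks of 150 nt or less at a snoRNA or scaRNA gene, 24 (red) are drawn, each under the small RNA gene (blue), in nt from the gene's lower coordinate, with host and small RNA named at the left and the log2 fold of IP over input at the right, from 2.97 in RAB3GAP1 down to 0.66 in TCP1. Most peaks share the lower coordinate of the small RNA gene; that of RPL21 at SNORD102 does not.

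Most hosts had a single intron peak. Of the 1980 genes 1396 had 1 (70.5%), 358 had 2, 139 had 3 and 40 had 5 or more. Where a gene had several, they often stood near each other: the gap between neighbours had a median of 1223 nt, and 454 of 972 gaps were under 1000 nt (46.7%). Another peak outside introns was listed in 1892 hosts. In these, the median log2 fold of the intron peaks was above that of the other peaks in 1176 genes (62.2%, 59.9 to 64.3%), by a median of 0.14. Without the peaks over a second gene this was 58.0% (55.5 to 60.5%) of 1516 genes, by 0.08. Both kinds of peak are seen only where p was under 0.05. How far that cut set the difference was not tested.

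The gene with the most was NFIA, a transcription factor of the nuclear factor I family, with 16 intron peaks among its 20 peaks. They stood in a stretch of 34.6 kb, 5.79% of the span of 598 kb (chromosome 1, 61094196 to 61128820), and none overlapped another listed gene. Their log2 folds lay between 0.73 and 1.44 and their widths between 101 and 601 nt, and 1 of the 16 was strong. A peak labelled 3′ UTR ended just upstream of them, at 61088845, with a log2 fold of 3.15, the gene's highest. NFIA was at 3.01 FPKM.

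MMS22L, a factor in the repair of stalled replication forks, had 7 intron peaks in 13.6 kb near its 5′ end. They rose to 2.59, and 2 were strong. MACROH2A1, which encodes the histone variant macroH2A1, had 7 of its 9 peaks in introns, with log2 folds from 0.64 to 2.29 and none of them strong. ECHDC2 had 7 between 0.61 and 1.32, also none strong. In N4BP2L2, 4 of the 7 lay over another gene. COX11, an assembly factor of cytochrome c oxidase, had 6, and all of them overlapped a peak on the other strand. Of these, 3 lay over another gene. Its extent of 4202 nt (chromosome 17, 54955102 to 54959302) enclosed those that began at 54956760 and 54957360, so the 6 are not separate places. AC087721 had 6, all over another gene, and has no input level.

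DYNC1H1, the heavy chain of cytoplasmic dynein, and RNF213, a ubiquitin ligase, had 6 each beside 17 and 18 peaks with other labels. The peak of RNF213 at 7.02 was the highest fold of all intron peaks, but its adjusted p was 0.00102, and the other 5 lay between 0.72 and 1.43. It also lay inside the extent of an RNF213 peak labelled 3′ UTR, at a log2 fold of 2.08 (chromosome 17, 80313078 to 80320284). ATXN1 had 6, among them the extent of 68377 nt. Together the 40 genes with 5 or more held 235 intron peaks, of which 28 (11.9%) were strong and 61 lay over another gene. The run from first to last covered a median of 28.4% of the gene span and under 10% in 9 genes.

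Other genes with 6 intron peaks had them close together or spread out. Those described here were chosen after their values were seen, and not all genes with 6 are among them. In MLXIPL, the transcription factor ChREBP that responds to glucose in liver, the 6 stood within 4.76 kb (15.2% of the span), with log2 folds from 0.85 to 1.30, and 5 of them lay over another listed gene. SGCE, a sarcoglycan, had 6 within 26.6 kb from 0.95 to 2.35, 1 of them strong. KDM6A, a histone demethylase, had 6 within 45.1 kb near the 3′ end, at positions from 79.0 to 97.7% of the gene and log2 folds from 0.89 to 1.74. In SFSWAP, a splicing regulator, the 6 ran over 94.4% of the gene, from 0.74 to 2.46. In GSE1 all 6 and in MSI2, an RNA-binding protein, 4 of the 6 lay over another listed gene.

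**Figure D5:**
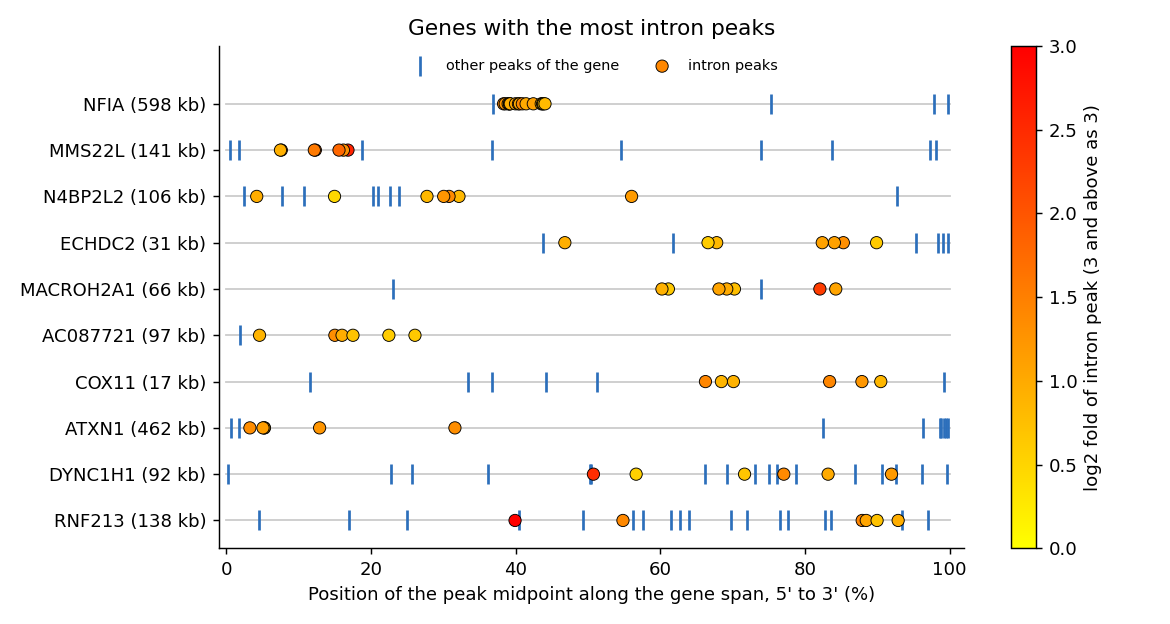
Position of each peak's midpoint along the gene span (%, 5′ to 3′) in the 10 genes with the most intron peaks; circles are intron peaks coloured by log2 fold of IP over input (values of 3 and above shown as 3) and blue ticks are the gene's other peaks. The 16 circles of NFIA crowd into 5.79% of its span, and the red circle of RNF213 stands for 7.02.

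A set of genes had peaks in introns and nowhere else. There were 88 of them, with 116 peaks, and 61.2% of those peaks (51.7 to 70.1%) lay over another gene, against 23.8% (22.2 to 25.4%) in the other hosts. Their median level was 1.33 FPKM against 6.62 FPKM. In the 6 of them with 3 or more peaks, all peaks lay over another gene. AC244517 had 5, with log2 folds from 0.92 to 3.83. ZNF540, a zinc-finger gene at 0.0162 FPKM, had 4 from 2.29 to 3.89. AC104389 had 4 and AC006978, AL359922 and AC022384 had 3 each.

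Gene lists chosen for what is known of their introns or their RNA were counted next. Nuclear m6A readers and splicing proteins had an intron peak in 16 of 32 listed genes (50.0%, 31.9 to 68.1%), beside 17.3% of all coding genes of 1 FPKM or more. Their 29 intron peaks were shallow, with a median log2 fold of 0.69 against 1.12 for all intron peaks, none was strong and none lay over another gene. Of the readers YTHDC1, HNRNPC, RBMX and HNRNPA2B1, only HNRNPA2B1 had an intron peak, 1 at 0.52, so the share is mainly that of splicing proteins. HNRNPL, a regulator of alternative splicing, had 4, between 0.77 and 0.94. HNRNPU, SRSF4 and TRA2B had 3 each. These genes are abundant, and the part of their level in the count was not tested; HNRNPL stood at 46.5 FPKM and HNRNPU at 20.2 FPKM.

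Genes with known detained introns, which stay in nuclear RNA after the rest has been spliced, had a peak in 9 of 20 (45.0%, 23.1 to 68.5%). The share of all coding genes of 1 FPKM or more was 17.3%, and 19 of the 20 reached that level. The part of gene level and span in the count was not tested. PNISR had 4, from 0.71 to 1.36, and NKTR had 3, from 0.45 to 1.18. CLK1, a kinase of splicing factors whose introns are known to be detained, had 1 at 1.35, and CLK3, a kinase of the same family, had 1 at 1.67, the only strong peak of the group. The 2 peaks of DDX39B lay over the readthrough gene ATP6V1G2-DDX39B.

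Genes with early polyadenylation sites in introns, where a short transcript can end, had a peak in 7 of 10 (70.0%, 34.8 to 93.3%), beside the same 17.3%. Here too the part of gene level and span was not tested. ETNK1, an ethanolamine kinase, had 2 at 0.60 and 1.20. MAGI3, a scaffold protein, had 1 at 1.64 (adjusted p 2.37e-09), which overlapped another listed gene. FOXN3, a forkhead repressor, had 2 at 1.44 and 2.43, both over another gene. DICER1, PCF11 and CDK12 had 1 each at 1.16, 1.04 and 1.36, and that of PCF11 lay over another gene. In the whole group 5 of the 9 intron peaks did so. Whether any of the 9 lay in the intron with the early site was not tested.

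In the other groups read here 12.9 to 25.0% of the listed genes had an intron peak. These shares carry no limit on level, unlike the share of all coding genes of 1 FPKM or more. Of the 20 hepatocyte genes 4 had an intron peak, TF, AHSG, ALB and FGG, the gamma chain of fibrinogen, at 1.09. Of 31 hosts of intron microRNAs or snoRNAs 4 had one, with 2 in NCL and 1 in RPL3. That list includes non-coding hosts such as SNHG1 and GAS5, which the intron label hardly reaches. Its share therefore cannot be set beside that of coding genes. Of 20 large genes, of which 13 reached 1 FPKM, 5 had one, with 2 each in DPYD and WWOX. Of these 7 peaks 5 lay over another gene. Of 10 m6A writers 2 had one, METTL3, the catalytic subunit, at 0.51 and PCIF1, which methylates adenosine next to the mRNA cap, at 0.73. Both peaks had the smallest width of 101 nt, and the authors' adjusted p was 0.0511 in METTL3 and 0.0418 in PCIF1. The 12 listed long non-coding RNAs are not read here, since the intron label was given to only 1 peak of a non-coding gene.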

How the data were processed

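Per the submitters' processing notes, fastp, FastQC, HISAT2, HOMER, StringTie and edgeR were used; neither their roles and settings nor a genome build is named in those notes. Per the file headers, the authors' peak table lists for every peak its gene, region, width, log2 fold (IP against input), p-value and adjusted p-value, and their gene table gives FPKM of the input. These are the authors' values and were not recomputed. Per the labels' protocols, libraries were stranded.

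Members, gene lists and named-gene rules were chosen with earlier results of these data known. A listed start plus 1 matched a gene start in 2940 peaks and a listed start in 0, so 1 was added to starts; listed widths are 1 nt longer than the extent. Positions are midpoints along gene spans. Overlap with another gene needed 1 nt on the same strand. Shares carry exact Clopper-Pearson 95% intervals (Python 3.11.15, pandas 2.3.3, SciPy 1.17.1), which cover counting error only. Gene kinds came from the gene table's descriptions and RefSeq. Overlap and interval steps were tested on simulated data. Named were the 10 genes with the most intron peaks, the 10 peaks with the highest fold and the 10 with the lowest p, the 5 widest, the 5 hosts of highest level, genes of 3 or more peaks all in introns, and list members. A few genes that this rule or a figure would name are not reported here.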

Additional observations from a re-analysis of the deposited data

How the results depend on the processing

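The alternatives changed which peaks were kept; those on same-strand genes were chosen after seeing the data. The share of peaks in introns, 5.93%, was 2.25% at an adjusted p under 0.001, 6.42% at 2-fold or more, 6.36% without peaks opposite another peak, 7.99% at 2000 nt or less, 6.55% at 1 FPKM or more and 4.86% without peaks over another same-strand gene. Under the limit on adjusted p the medians were a width of 551 nt, position 56.5%, span 59.3 kb, level 6.99 FPKM and log2 fold 1.63. At 2-fold or more they were 276 nt, 66.5 kb, 4.93 FPKM and 1.40. Without peaks over another gene they were 201 nt, 64.2%, 45.7 kb, 6.79 FPKM and 1.05. At 1 FPKM or more level and log2 fold were 6.95 FPKM and 1.09, and with each host counted once the span was 47.8 kb. The 40 genes with 5 or more intron peaks became 0, 9 and 26 under the limits on p, on fold and on other genes, as fewer peaks remained. The strong share was 7.66% without peaks over another gene. The share over another gene was 45.0% at an adjusted p under 0.001, 32.2% at 2-fold or more and 22.1% at 1 FPKM or more. The cause was not tested beyond the filters' own construction. No paired analysis was possible because there is 1 IP and 1 input library, so no replicate could be left out. The planned search for GGAC in peak sequences was not run, because no genome is used here. Unknown depth limits every call.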
